A study of Rattus norvegicus with 16 samples.

Results

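The genes described here are those whose symbols name proteasome subunits, activators or assembly factors: Psm followed by a letter from a to g and a digit. Of 22517 gene symbols, 46 fit this pattern. They comprise 5 immunoproteasome genes (Psmb8, Psmb9, Psmb10, Psme1 and Psme2) and 41 others. Of these 41, 31 are constitutive structural subunits: 7 of the alpha ring, 4 non-catalytic and 3 catalytic genes of the beta ring, 6 ATPases and 11 non-ATPase genes of the regulatory particle. The remaining 10 are the activators Psme3 and Psme4, 5 assembly chaperones (Psmd5, Psmd9, Psmg1, Psmg2 and Psmg4), the thymus subunit Psmb11, and the symbols Psma3l and Psmc3ip. Psma3l is an older name of Psma3 in RefSeq, so reads of 1 gene may be split between these symbols, and both are uncertain. Psmc3ip encodes a partner protein that acts in meiotic recombination and is not itself a subunit. Psmd10, Psmg3, Psmf1 and Psma8 were not matched by symbol and are not used here.

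RNA was sequenced from liver and epididymal fat of 8 male ZDF/GmiCrl-fa/fa rats, an obese strain that lacks a working leptin receptor and becomes diabetic. From 9 weeks of age the rats ate Purina 5008 feed that held R-α-lipoic acid (LA), a dithiol compound that serves mitochondrial enzymes as a cofactor, or were pair-fed (PF) the same feed without it, and tissues were taken at 11 weeks, after 2 weeks of feeding. There were 4 biological replicates for each tissue on each feed, making 16 libraries. All rats gave both tissues, and nothing in the labels ties a liver library to the fat library of the same rat.

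The proteasome is a barrel of stacked alpha and beta rings, capped by a regulatory particle whose ATPases unfold proteins marked with ubiquitin and feed them to the catalytic beta subunits. Interferons induce alternative catalytic subunits: Psmb8 takes the place of Psmb5 (chymotrypsin-like activity), Psmb9 that of Psmb6 (caspase-like) and Psmb10 that of Psmb7 (trypsin-like), and the resulting immunoproteasome favours peptides that suit MHC class I molecules. Psme1 and Psme2 form an interferon-induced ring-shaped cap on the same core, and Psme3 forms a related cap found in the nucleus. Immune cells carry immunoproteasomes constitutively, whereas most other cells raise them on interferon signals.

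Values are FPKM, a fragment count divided by the length of the transcript and by the total of mapped fragments. Genes at 1 FPKM or more numbered 9522 to 9738 in the liver libraries and 11276 to 11480 in the fat libraries. Read totals are unknown. Relative depth was read from the smallest steps between values: with 1 fragment in PF replicate 1 of the tissue worth 1, a fragment was worth 0.853 to 1 (PF) and 0.722 to 0.894 (LA) in liver, and 0.806 to 1 (PF) and 0.769 to 0.901 (LA) in fat, so LA libraries were on average somewhat deeper. The hepatocyte markers Alb and Tf were listed at 0 in liver but at 51.2 to 581 and 229 to 388 FPKM in fat. They go against the labels, the cause was not tested, and both were left out of the sums. Summed over 8 other hepatocyte markers, levels were 34200 to 42300 FPKM in PF liver, 25800 to 32000 in LA liver and at most 323 in fat. Over 7 adipocyte markers they were 33800 to 42300 FPKM in fat and at most 72.0 in liver. These sums matched the tissue labels. In bulk tissue, fewer cells of a type and less RNA per cell cannot be told apart.

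The start regions of the immunoproteasome genes and of their constitutive counterparts are shown with the matches to motifs of 2 kinds of transcription factor, those of the interferon response and those of constitutive proteasome genes. Whether these motifs differ between the groups was not tested, and some genes of each group held no match. Of the 46 genes, 40 had an entry in a RefSeq table of promoters (build GRCr8) that spans 250 bases before to 50 bases after each start. In the runs printed here, 5′ to 3′ on the gene's own strand and ending just before the start except for Psmb8, capitals mark a match. The motif of interferon regulatory factors (IRF) was written GAAANNGAAA, or TTTCNNTTTC on the other strand. That of NFE2L1 and NFE2L2, which drive constitutive proteasome genes, was written TGACNNNGC, or GCNNNGTCA on the other strand. Psmb8 (chr20:4657026-4657131, minus strand) runs to base 6 of the transcript, Psmb9 is at chr20:4668900-4668999 (plus), Psmb10 at chr19:50743293-50743392 (minus), Psme1 at chr15:33038871-33038970 (plus) and Psme2 at chr15:33052752-33052851 (minus). Tap1, which encodes a subunit of the peptide transporter and starts 457 bases from Psmb9 on the opposite strand, is at chr20:4668544-4668683 (minus). The constitutive Psmb5 is at chr15:32047380-32047479 (minus), Psmb6 at chr10:55737788-55737887 (plus) and Psmb7 at chr3:42827471-42827570 (minus). The runs of Psmb9, Psme1 and Psmb7 hold no match.
Psmb8: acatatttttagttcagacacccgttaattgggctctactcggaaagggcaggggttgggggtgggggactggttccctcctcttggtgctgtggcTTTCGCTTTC
Psmb9: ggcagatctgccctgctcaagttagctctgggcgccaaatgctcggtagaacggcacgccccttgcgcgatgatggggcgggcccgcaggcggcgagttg
Psmb10: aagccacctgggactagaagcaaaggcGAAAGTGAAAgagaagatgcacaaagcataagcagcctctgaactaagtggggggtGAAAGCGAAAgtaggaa
Psme1: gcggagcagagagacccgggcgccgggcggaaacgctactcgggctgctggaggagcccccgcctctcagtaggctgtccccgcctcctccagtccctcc
Psme2: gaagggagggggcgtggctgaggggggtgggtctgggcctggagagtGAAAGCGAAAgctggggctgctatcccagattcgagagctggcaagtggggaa
Tap1: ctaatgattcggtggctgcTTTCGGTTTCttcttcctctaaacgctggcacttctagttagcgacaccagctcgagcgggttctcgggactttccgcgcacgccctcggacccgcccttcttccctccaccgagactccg
Psmb5: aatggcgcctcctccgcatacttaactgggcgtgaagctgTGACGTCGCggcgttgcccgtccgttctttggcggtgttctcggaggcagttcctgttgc
Psmb6: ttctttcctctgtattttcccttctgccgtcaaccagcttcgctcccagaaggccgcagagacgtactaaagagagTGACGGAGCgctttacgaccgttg
Psmb7: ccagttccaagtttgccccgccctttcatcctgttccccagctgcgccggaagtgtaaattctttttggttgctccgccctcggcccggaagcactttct

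The IRF letters occurred in 7 of the 40 genes with an entry (17.5%: Psma4, Psmb3, Psmb8, Psmb10, Psmd7, Psme2 and Psmg4), against 1312 of 33469 promoters of the same length (3.92%). Psmb10 held a pair of matches, and Psmg4, a chaperone of alpha ring assembly, held 1 at bases 8 to 17 of its transcript. The windows of Psmb9 and Psme1 held none, while the match at Tap1 lies 336 bases before the start of Psmb9, outside the Psmb9 window. The NFE2L1 letters occurred in 8 of the 40 (20%: Psma3, Psmb2, Psmb5, Psmb6, Psmd1, Psmd3, Psmd9 and Psme4) against 12.1% of all promoters. Of the 3 constitutive catalytic subunits, Psmb7 held none. The STAT motif TTCNNNGAA, which reads the same on both strands, occurred in 4 of the 40 (10%), Psmb8 among them, against 8.87% of all promoters. No match of one motif overlapped a match of another in these genes. A match describes letters in a window and was not tested as a binding site.

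The levels of the constitutive subunits set the scale for the rest. Averaged over the 16 libraries, the highest of the 46 were Psmb1 (193 FPKM) and Psmb4 (190 FPKM), non-catalytic beta subunits, and the activator Psme1 (188 FPKM). The lowest were Psmb11, listed at 0 to 0.0315 FPKM, Psmc3ip (5.35 FPKM) and the chaperone Psmg2 (12.1 FPKM). Psmb11 belongs to a proteasome of thymic epithelium and was not tested, so 45 symbols entered each comparison. The median of the 31 constitutive structural subunits was 61.4 FPKM in PF liver, 57.8 in LA liver, 82.0 in PF fat and 82.2 in LA fat. In both tissues the regulatory particle lay below the core by median. In PF liver the median was 42.0 FPKM for the 11 non-ATPase and 56.9 for the 6 ATPase genes. The alpha ring had 97.6 FPKM there and the non-catalytic beta genes 141. In PF fat these medians were, in the same order, 63.7, 82.2, 105 and 141 FPKM. Such differences describe steady-state RNA per length and say nothing of protein stoichiometry.

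The immuno catalytic subunits were lower than the constitutive subunits they replace in every library but 1. Psmb8 reached 54.6, 48.9, 36.2 and 58.4 FPKM in PF liver, 90.0, 56.1, 69.5 and 79.3 in LA liver, 16.6, 28.7, 17.5 and 21.2 in PF fat, and 30.7, 22.7, 20.2 and 22.0 in LA fat. Every liver library was above every fat library for this gene, and LA liver replicate 1 was the 1 library in which Psmb8 exceeded Psmb5. Psmb5 measured 92.6, 103, 83.4 and 82.7 FPKM in PF liver, 84.7, 85.1, 87.4 and 96.1 in LA liver, 109, 150, 94.1 and 112 in PF fat, and 144, 110, 117 and 98.8 in LA fat. Its feed groups overlapped in both tissues.

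Psmb9 measured 21.3, 23.6, 17.4 and 30.5 FPKM in PF liver, 36.4, 35.4, 31.1 and 42.2 in LA liver, 19.7, 33.2, 21.6 and 28.0 in PF fat, and 42.6, 26.5, 24.8 and 27.6 in LA fat. The liver groups did not overlap, although PF replicate 4 lay close to the lowest LA library, and the fat groups did overlap. Psmb6, which Psmb9 replaces, measured 69.4, 69.8, 59.7 and 53.6 FPKM in PF liver, 50.5, 51.6, 53.0 and 57.4 in LA liver, 57.9, 79.7, 46.8 and 62.2 in PF fat, and 85.5, 59.3, 61.3 and 58.3 in LA fat. Its highest value was in LA fat replicate 1, the library that was also highest for Psmb9.

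Psmb10 measured 18.8, 18.9, 12.3 and 20.6 FPKM in PF liver, 20.2, 17.2, 14.5 and 20.4 in LA liver, 26.4, 40.0, 21.7 and 28.7 in PF fat, and 44.2, 28.5, 29.4 and 29.1 in LA fat. Fat libraries were all above liver libraries, the reverse of the order of Psmb8. Psmb7, which Psmb10 replaces, measured 150, 157, 148 and 143 FPKM in PF liver, 139, 125, 147 and 146 in LA liver, 156, 181, 125 and 175 in PF fat, and 188, 133, 167 and 128 in LA fat, with overlap between all groups.

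**Figure D1:**
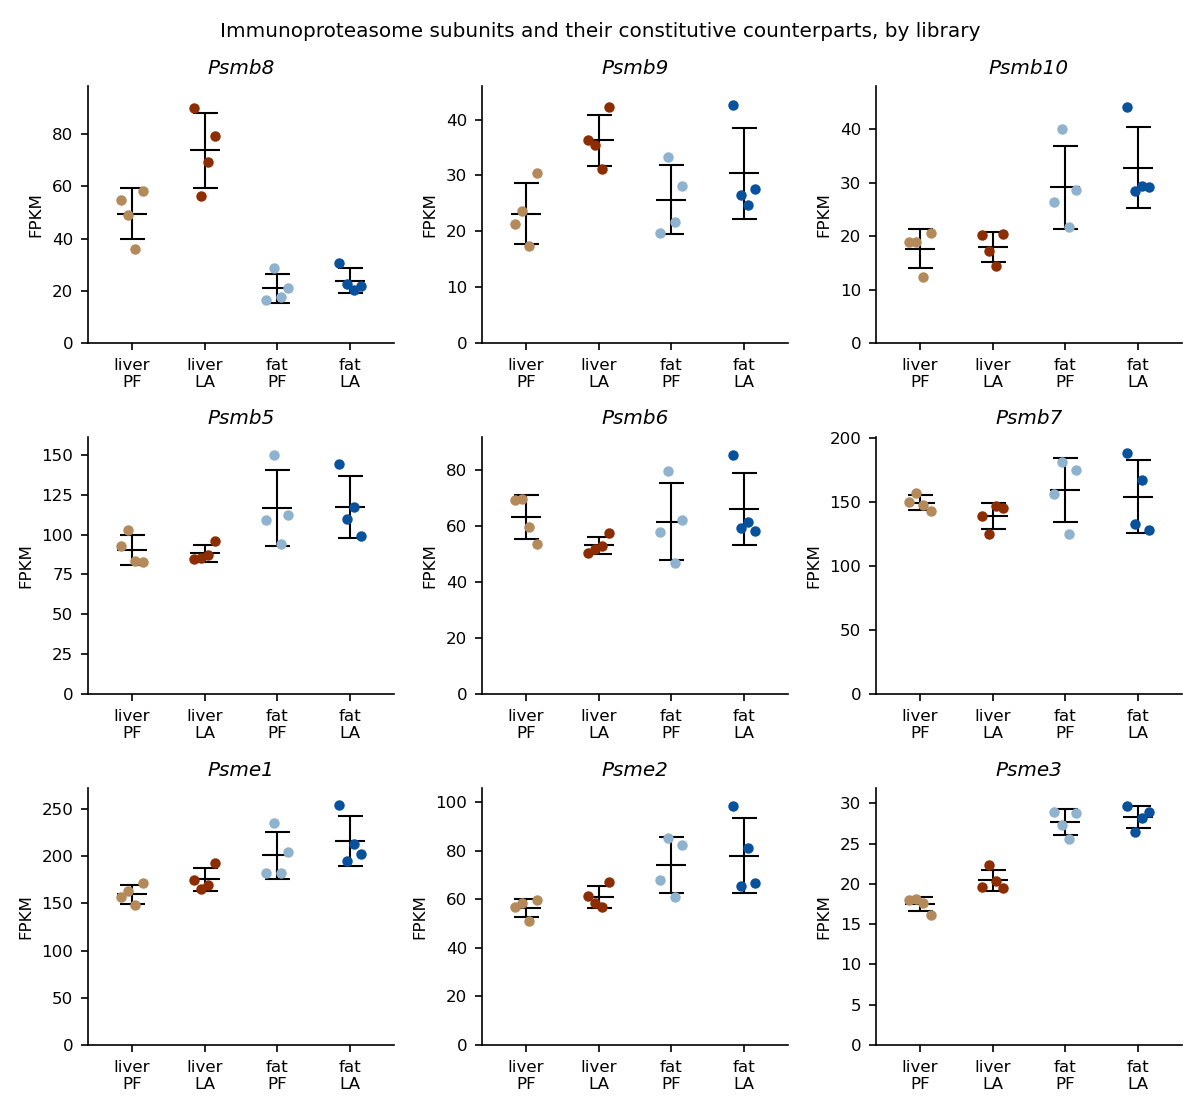
FPKM in each library (points) with the group mean and SD (bars, n = 4) for the immuno catalytic subunits Psmb8, Psmb9 and Psmb10, the subunits they replace (Psmb5, Psmb6, Psmb7) and the activators Psme1, Psme2 and Psme3, by tissue and feed; every axis starts at 0. Psmb8 is higher in liver, Psmb10 in fat, and the LA liver libraries of Psmb9 lie above those of PF liver.

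Psme1, a subunit of the interferon-induced cap, measured 157, 163, 148 and 172 FPKM in PF liver, 175, 165, 170 and 192 in LA liver, 182, 235, 182 and 204 in PF fat, and 254, 195, 213 and 202 in LA fat. Its partner Psme2 measured 56.8, 58.4, 51.2 and 59.6 FPKM in PF liver, 61.3, 58.3, 57.0 and 67.4 in LA liver, 68.2, 85.1, 60.9 and 82.4 in PF fat, and 98.5, 65.4, 81.3 and 66.9 in LA fat. The feed groups of both genes overlapped in each tissue, and the Psme1/Psme2 ratio stayed between 2.48 and 3.02 in the 16 libraries. The nuclear activator Psme3 measured 17.9, 18.1, 17.7 and 16.2 FPKM in PF liver and 19.6, 22.3, 20.4 and 19.5 in LA liver, without overlap, and 28.9, 27.3, 25.5 and 28.8 in PF fat and 29.7, 26.4, 28.2 and 28.9 in LA fat, with overlap.

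The liver comparison asked whether LA feeding changed these genes. Of the 45 tested, 1 rose, the immuno catalytic subunit Psmb9. Its log2 fold change was 0.64 (SE 0.15, limma adjusted p = 0.0384), a mean of 23.2 ± 5.49 FPKM (SD, n = 4) in PF and 36.3 ± 4.60 in LA. No member fell. That is 2.22% of the members called higher against 2.27% of all 9710 genes tested, and none called lower against 2.21% of all genes, so as a count the members did not stand out from the background. Fold changes are on the log2(FPKM + 1) scale, tests are limma fits over all genes, and a gene was called at an adjusted p under 0.05. Without overlap between feeds, 4 members were higher in LA (Psmb9, Psmd2, Psme3 and Psmg4) against 5.89% of all genes, and 1 was lower (Psmb4) against 6.39%; the Psmd2 groups met at 44.7 FPKM.

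The rest of the immunoproteasome set did not pass in the liver. Psmb8 had a log2 fold change of 0.57 (SE 0.17, limma adjusted p = 0.0843), from 49.5 ± 9.72 to 73.7 ± 14.4 FPKM. Psmb10 had 0.04 (limma adjusted p = 0.921), Psme1 0.13 (0.379) and Psme2 0.11 (0.499). All 5 fold changes were above 0, with a median of 0.13, beside a median of -0.002 over all genes. The call of Psmb9 rested on nearly every library: it was lost without PF replicate 1 (limma adjusted p = 0.102), 2 (0.072) or 3 (0.0705), or without LA replicate 1 (0.0744), 2 (0.0939) or 4 (0.094). Its log2 fold change stayed between 0.52 and 0.66 in these 6 fits. It was 0.78 without PF replicate 4 (limma adjusted p = 0.0108) and 0.71 without LA replicate 3 (0.0446), where the call held.

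The 31 constitutive structural subunits stayed within narrow limits in the liver. Their log2 fold changes ran from -0.24 (Psmb6) to 0.10 (Psmd4, a ubiquitin receptor of the regulatory particle), with a median of -0.03. Of them 11 were above 0 and 20 below, and 0 were called. An unadjusted limma p under 0.05 was held by 2 of the 31, beside 1955 of all 9710 genes tested. The 2 were Psmb6 (SE 0.09, adjusted p = 0.186) and Psmb4 (log2 fold change -0.20, SE 0.08, adjusted p = 0.175). Psmb4 measured 218, 224, 196 and 191 FPKM in PF liver and 179, 169, 184 and 187 in LA liver. None of the 3 constitutive catalytic subunits was above 0 and all 3 immuno catalytic subunits were, beside 49.4% of all genes tested. Some of these signs carry little: Psmb5 (-0.03, SE 0.09) and Psmb10 (0.04, SE 0.16) changed by less than their SE. Psmb7 had a log2 fold change of -0.11 (SE 0.07). In fat, 2 of the 3 constitutive and all 3 immuno catalytic subunits were above 0.

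Outside the rings and the regulatory particle, the chaperone Psmg4 came nearest to a call. It measured 28.7, 22.3, 27.6 and 29.6 FPKM in PF liver and 36.2, 35.9, 32.7 and 34.7 in LA liver, without overlap (log2 fold change 0.36, SE 0.09, limma adjusted p = 0.0526). Without PF replicate 4 it was called (limma adjusted p = 0.0482). Psme3 had a log2 fold change of 0.21 (SE 0.07, limma adjusted p = 0.126). Psmg1, another alpha ring chaperone, measured 38.2, 42.7, 43.6 and 46.3 FPKM in PF liver and 34.0, 34.2, 39.5 and 42.4 in LA liver, with overlap (log2 fold change -0.19, limma adjusted p = 0.293). RefSeq lists pseudogenes for 19 of the members, Psmb4, Psmb6, Psmb7, Psme1, Psme2, Psme3 and Psmg4 among them, so their reads may be shared with copies; Psmb5, Psmb8, Psmb9 and Psmb10 have none listed.

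**Figure D2:**
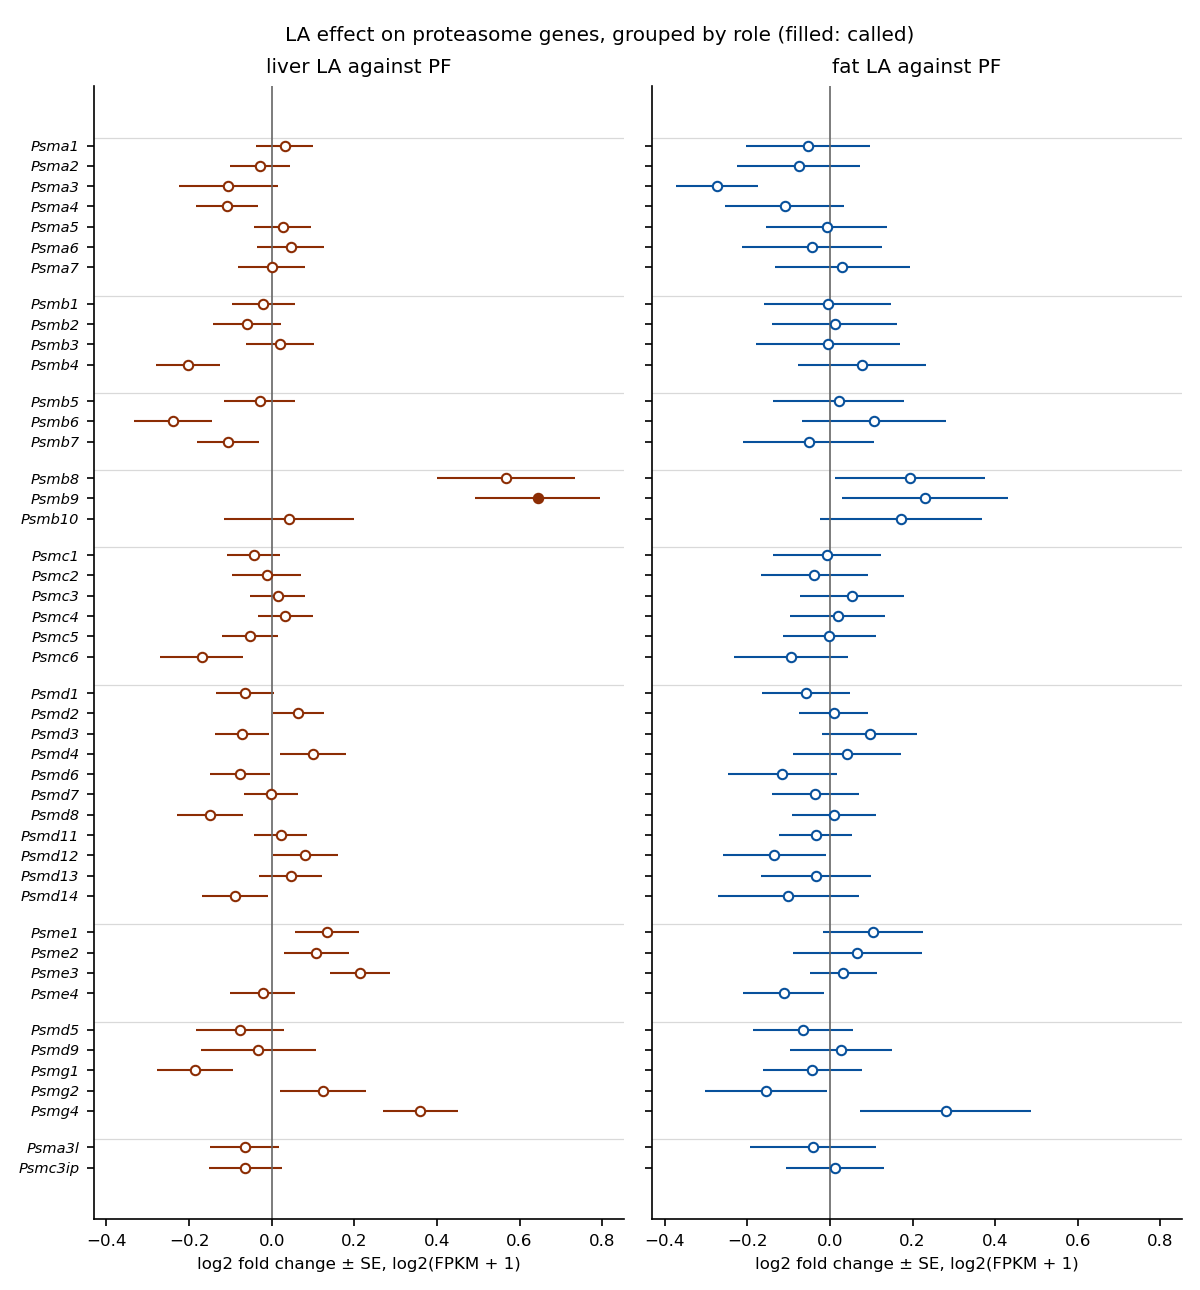
Log2 fold change of LA against PF (points, with SE) on the log2(FPKM + 1) scale for the 45 tested genes in liver (left) and fat (right), in blocks from top to bottom: alpha ring, non-catalytic beta, constitutive catalytic, immuno catalytic, ATPases, non-ATPases, activators, chaperones, other symbols; filled points passed the test. Psmb9 in liver is the filled point, and the fat errors are wider.

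Genes that work beside the immunoproteasome were read from lists. Of 10 antigen-processing genes tested in liver, 2 rose: the transporter subunit Tap1 (log2 fold change 0.60, SE 0.12, limma adjusted p = 0.0181) and tapasin, Tapbp (0.35, SE 0.08, adjusted p = 0.0421), and 0 fell. Tap1 measured 5.76, 7.18, 5.96 and 7.58 FPKM in PF liver and 12.8, 9.77, 8.87 and 11.0 in LA liver, without overlap. Tap2, the other transporter subunit, had 0.42 (limma adjusted p = 0.0504). The mean Tap1/Psmb9 ratio was alike under both feeds in the liver, 0.292 ± 0.0410 (SD, n = 4) in PF and 0.293 ± 0.0398 in LA. Single libraries ran from 0.249 to 0.343 in PF and 0.261 to 0.351 in LA liver. In PF and LA fat the means were 0.340 and 0.375. The liver change of Tap1 and Psmb9 was thus about equal in size. That is not particular to this pair, as mean Psmb8/Psmb9 was 2.16 in PF liver and 2.04 in LA liver.

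Of 6 interferon transcription factors, 2 rose in the liver: Irf7 (log2 fold change 2.52, limma adjusted p = 0.000244) and Irf9 (0.74, adjusted p = 0.00151). Irf9, a DNA-binding partner in type I interferon signalling, measured 8.15, 9.93, 8.84 and 9.85 FPKM in PF liver and 16.88, 14.70, 14.97 and 17.41 in LA liver, without overlap. Irf1, a classical activator of Psmb9 and Tap1, measured 4.26, 3.18, 5.73 and 5.91 FPKM in PF liver and 5.44, 5.56, 5.61 and 7.07 in LA liver, with overlap (log2 fold change 0.29, limma adjusted p = 0.34). Of 8 genes listed for the interferon gamma axis, 5 entered the liver test and 0 were called. All 5 were above 0 (median log2 fold change 0.62). Ifng, Ciita and Socs1 fell below the filter and were not tested. Mean Ciita was 0.217 FPKM in PF and 0.203 in LA liver, and mean Socs1 0.143 and 0.433. Gbp5 measured 0.468, 0.568, 0.377 and 1.40 FPKM in PF liver and 1.41, 2.47, 1.30 and 3.12 in LA liver. It thus passed the filter mainly through the LA libraries. An unadjusted limma p under 0.05 was held by 3 of the 5 tested, beside 1955 of all 9710 genes. The 3 were Cxcl9 (log2 fold change 1.32, adjusted p = 0.101), Gbp5 (0.845, 0.057) and Gbp2 (0.62, 0.201). Cxcl9, an interferon gamma target, measured 7.80, 8.55, 11.6 and 40.3 FPKM in PF liver and 29.9, 38.5, 29.2 and 44.8 in LA liver, so PF replicate 4, the highest PF library for Psmb9, was high for it too. Ifng itself was at most 0.146 FPKM in liver.

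General partners and regulators of the proteasome did not pass in the liver: of 25 tested, 0 were called, with a median log2 fold change of 0.02. An unadjusted limma p under 0.05 was held by 2 of the 25, beside 1955 of all 9710 genes tested. The nearest was Fbxo7, a ubiquitin ligase subunit that binds the proteasome inhibitor (log2 fold change -0.26, limma adjusted p = 0.137). Pomp, the assembly factor of the beta ring, went from 308 ± 12.9 to 289 ± 20.9 FPKM (SD, n = 4; limma adjusted p = 0.56), and Nfe2l1, the factor that raises proteasome genes when activity is short, from 15.7 ± 2.52 to 16.3 ± 1.51 (limma adjusted p = 0.816).

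Markers of other cell types moved beside these liver values. Summed FPKM of 13 matched macrophage markers was 203 to 235 in liver under PF and 266 to 379 under LA. Of 10 tested, 3 rose: Clec4f (log2 fold change 0.65, limma adjusted p = 0.0166), Cd163 (0.65, 0.0191) and Vsig4 (0.50, 0.03). Clec4f and Vsig4 mark resident liver macrophages and reached at most 0.459 and 0.770 FPKM in fat. Cd163 is not particular to liver: it averaged 5.04 FPKM in PF liver and 34.3 in PF fat. Marco and Emr1 were listed at 0 in all 16 libraries, fat included, so they say nothing of a change. The 5 leukocyte markers summed to 17.3 to 22.0 in PF and 20.1 to 26.7 in LA. The 9 T and NK cell markers summed to 7.08 to 8.41 and 7.61 to 12.2, and most of that was Cd4 (mean 6.111 FPKM in PF and 7.075 in LA). Cd4 was the 1 of the 9 tested (log2 fold change 0.17, limma adjusted p = 0.547). Of the 9, 1 reached 1 FPKM in any PF library and 2 in any LA library, so the sum says little of T and NK cells. The 5 dendritic cell markers summed to 1.25 to 1.54 and 1.64 to 3.38, and the 4 B cell markers to at most 0.895. Hepatocyte markers were lower under LA. Their sums, 34200 to 42300 FPKM in PF and 25800 to 32000 in LA, did not overlap, and 7 of 8 had a log2 fold change below 0 (median -0.28). The fibrinogen chains Fga (log2 fold change -0.53, limma adjusted p = 0.0233) and Fgg (-0.50, 0.0225) fell, and 0 of 8 rose. The part of any of these cell types in the Psmb9 result was not tested.

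At the RNA level each immuno subunit was set against the subunit it replaces as a ratio, and subunits in the particle were not measured. The printed ratios are of FPKM and do not depend on library scaling. The log2 differences, SE and tests were taken on FPKM + 1, which leaves a small dependence on scaling. Psmb9/Psmb6 was 0.306, 0.338, 0.291 and 0.568 in PF liver and 0.722, 0.686, 0.586 and 0.736 in LA liver. The groups did not overlap, and the log2 difference of 0.88 (SE 0.23, n = 4 per group) had an exact permutation p of 0.0286, the smallest that 4 against 4 libraries allow, which was 0.171 after Benjamini-Hochberg adjustment over the 6 ratio tests. Psmb8/Psmb5 was 0.590, 0.475, 0.434 and 0.706 in PF liver and 1.06, 0.660, 0.795 and 0.825 in LA liver, with overlap (difference 0.60, SE 0.21, exact permutation p = 0.0571, adjusted 0.171). Psmb10/Psmb7 was 0.0831 to 0.144 in liver under PF and 0.0982 to 0.145 under LA (difference 0.15, SE 0.20, exact permutation p = 0.514, adjusted 0.514). After adjustment no ratio passed. Over 6 tests a ratio at the smallest possible p of 0.0286 cannot pass by itself, so this outcome does not speak against a difference in Psmb9/Psmb6.

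In fat the ratios lay closer together between the feeds. Psmb8/Psmb5 was 0.152, 0.191, 0.186 and 0.189 in PF fat and 0.213, 0.208, 0.172 and 0.223 in LA fat (log2 difference 0.17, SE 0.11, exact permutation p = 0.143, adjusted 0.214). Psmb9/Psmb6 was 0.341 to 0.462 in fat under PF and 0.404 to 0.498 under LA (0.12, SE 0.11, exact permutation p = 0.371, adjusted 0.445). Psmb10/Psmb7 was 0.164 to 0.221 in fat under PF and 0.176 to 0.235 under LA (0.22, SE 0.13, exact permutation p = 0.114, adjusted 0.214). All 3 pairs overlapped.

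**Figure D3:**
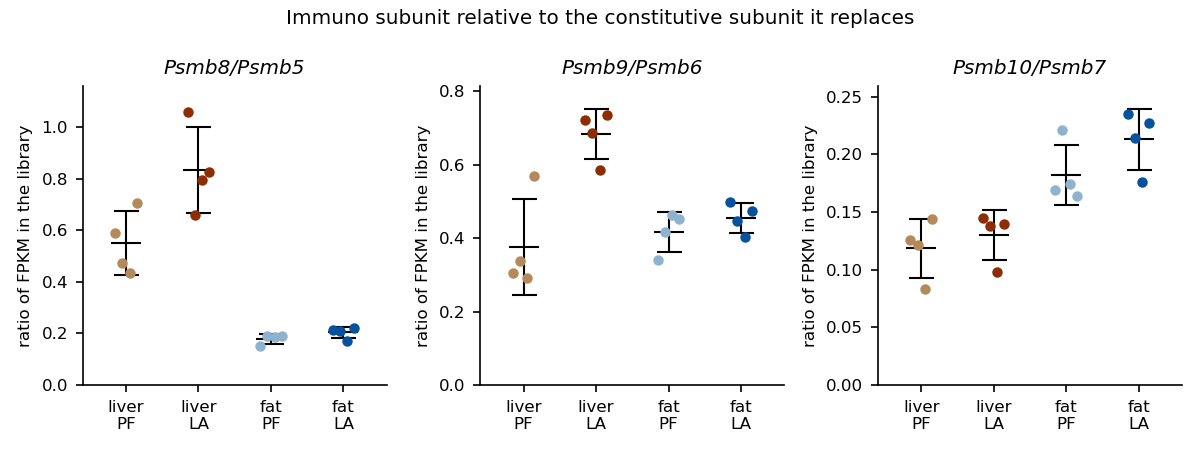
Ratio of FPKM of each immuno catalytic subunit to the constitutive subunit it replaces in every library (points), with the group mean and SD (bars, n = 4), by tissue and feed; axes start at 0. Psmb9/Psmb6 does not overlap between the feeds in liver, and Psmb8/Psmb5 in fat lies at or below 0.223.

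The immuno subunits also differed in their proportions to each other, given here as values without a test. Psmb8/Psmb9 was 2.16 ± 0.282 (SD, n = 4) in PF liver and 2.04 ± 0.391 in LA liver, but 0.817 ± 0.0469 in PF fat and 0.798 ± 0.0572 in LA fat, with no overlap between tissues. Psmb10/Psmb9 was 0.885, 0.803, 0.706 and 0.677 in PF liver and 0.553, 0.486, 0.465 and 0.483 in LA liver, without overlap, and 1.01 to 1.34 in fat under PF and 1.04 to 1.19 under LA. So Psmb8 was the most abundant of the 3 in each of the 8 liver libraries and the least abundant in each of the 8 fat libraries.

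The fat comparison asked the same of LA feeding in epididymal fat, and none of the 45 members was called. The background was as low: 0.00869% of 11501 genes were called higher and 0.00869% lower, 1 gene each. No member was free of overlap between feeds, against 1.32% of all genes higher in LA and 0.756% lower. The 5 immunoproteasome genes had log2 fold changes from 0.07 (Psme2) to 0.23 (Psmb9, SE 0.20), all with a limma adjusted p of 1. The 31 constitutive structural subunits ran from -0.27 (Psma3) to 0.11 (Psmb6), with a median of -0.01, 11 above 0 and 20 below.

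In fat 1 member had an unadjusted limma p under 0.05, beside 451 of all 11501 genes tested. It was the alpha ring gene Psma3 (log2 fold change -0.27, SE 0.10, limma adjusted p = 1). Psma3 measured 24.5, 22.9, 21.2 and 25.3 FPKM in PF fat and 21.8, 17.2, 20.2 and 18.0 in LA fat, with overlap. Its alias Psma3l, at 105, 112, 86.4 and 125 in PF fat and 127, 82.4, 111 and 96.7 in LA fat, also overlapped (log2 fold change -0.04). Psme4, the large single-chain activator, had a log2 fold change of -0.11, and Psmd12, a scaffold of the regulatory lid, -0.13, both with a limma adjusted p of 1.

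The partner lists were also without a call in fat. Of 11 antigen-processing genes, 25 partners, 6 interferon transcription factors and 7 interferon gamma genes tested, 0 were called. Tap1 measured 7.77, 11.8, 6.89 and 8.18 FPKM in PF fat and 14.5, 10.9, 9.98 and 9.54 in LA fat, with overlap (log2 fold change 0.35, SE 0.17, limma adjusted p = 1). All 6 interferon transcription factors had a fold change above 0 in fat, beside 55.3% of all genes tested, with a median log2 value of 0.21. An unadjusted limma p under 0.05 was held by 2 of them, Irf7 and Irf9, beside 451 of all 11501 genes. Irf7 measured 20.9, 28.2, 14.1 and 15.4 FPKM in PF fat and 61.2, 46.4, 29.0 and 40.5 in LA fat, without overlap (log2 fold change 1.14, SE 0.25, limma adjusted p = 0.947). Irf9 measured 15.4, 17.7, 13.7 and 15.2 FPKM in PF fat and 27.9, 23.7, 21.1 and 21.1 in LA fat, also without overlap (0.56, SE 0.11, limma adjusted p = 0.892).

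The difference of the LA effect between tissues was tested over the 16 libraries, since a call in liver and none in fat does not show that the tissues differ. None of the 45 members was called, against 0.232% of 12079 genes called higher in liver and 0.149% lower. An unadjusted limma p under 0.05 was held by 0 members, beside 991 of the 12079 genes. For Psmb9 the difference was 0.41 (SE 0.27, limma adjusted p = 0.804) and for Psmb8 0.37 (SE 0.27, adjusted p = 0.83). Psmb6 had the lowest value, -0.35 (SE 0.21, limma adjusted p = 0.77).

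The fat libraries varied together in their constitutive subunits. The median deviation of the 31 subunits from their group mean on the log2(FPKM + 1) scale was 0.26 in LA fat replicate 1, where 31 of 31 lay above the mean, and -0.17, 0.09 and -0.14 in LA fat replicates 2, 3 and 4. In PF fat it was -0.01, 0.13, -0.27 and 0.11 in replicates 1 to 4, with 0 of 31 above the mean in replicate 3. In liver it stayed between -0.08 and 0.08. The same quantity over all genes was between -0.02 and 0.02, so the shift was not one of all genes in a library.

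The coefficient of variation among replicates had a median over the 31 of 13.8% in PF fat and 14.5% in LA fat but 6.39% and 5.46% in PF and LA liver. Nfe2l1 measured 102, 74.4, 87.4 and 74.6 FPKM in PF fat and 76.5, 95.2, 82.3 and 110 in LA fat, so its lower values came from the libraries in which the constitutive subunits lay above their means (PF replicates 2 and 4, LA replicates 1 and 3). The 3 matched endothelial markers summed to 109, 98.6, 104 and 76.5 FPKM in PF fat and 68.7, 107, 72.9 and 90.3 in LA fat, also lower within each feed in the same 4 libraries. Of the 3, Cdh5 (22.5 to 46.7 FPKM under PF and 19.1 to 45.4 under LA) and Vwf (3.87 to 6.89 and 3.28 to 5.66) had this order in both feeds. Pecam1 did not: it measured 56.7, 65.1, 52.3 and 50.2 FPKM in PF fat and 45.3, 55.7, 46.5 and 43.8 in LA fat, highest in PF replicate 2. The macrophage markers summed to 1520, 2080, 1350 and 1720 FPKM in PF fat and 3140, 1690, 2150 and 1790 in LA fat. The leukocyte markers summed to 265, 320, 275 and 294 in PF fat and 385, 278, 320 and 298 in LA fat. Both sums were higher within each feed in PF replicates 2 and 4 and LA replicates 1 and 3, and highest in LA fat replicate 1. Not every marker had this order: Cd68 measured 68.55, 79.83, 57.13 and 61.19 FPKM in PF fat. The part of cell composition in this shift was not tested.

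**Figure D4:**
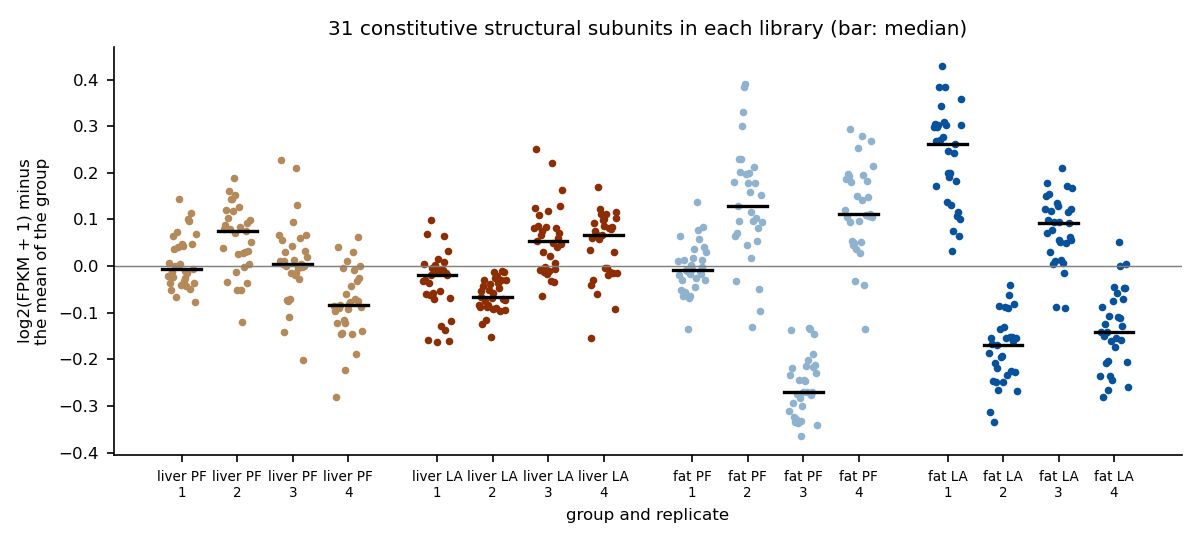
Deviation of each of the 31 constitutive structural subunits (points) from its group mean, in log2(FPKM + 1), for every library, with the median as a bar. LA fat replicate 1 sits above 0 with all 31 genes and PF fat replicate 3 below with all 31, while the liver medians lie between -0.08 and 0.08.

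Liver and fat were compared within each feed, with a call at an adjusted p under 0.05 and a log2 fold change over 1 in size. Psmb8 was the 1 member called higher in liver in both, with a log2 fold change of 1.21 (SE 0.18, limma adjusted p = 8.63e-05) in PF and 1.58 (SE 0.16, adjusted p = 5.1e-06) in LA. Psmc5, an ATPase of the regulatory particle, was called lower in liver (-1.01 in PF and -1.06 in LA), as was Psmc3ip (-1.46 and -1.53). The members' share, 1 of 45 higher, stood against 11.1% of all genes in PF and 10.5% in LA, and 2 of 45 lower against 36.3% and 36%, so the members' shares lay below those of all genes tested. The direction of most members depended on scaling. As deposited, 34 of 45 in PF and 33 of 45 in LA were lower in liver, a share close to that of all genes. In PF 24.4% of members and 24.6% of all genes tested were higher in liver, and in LA 26.7% and 24.1%. When each library was centred on its median gene, 40 of 45 members were higher in liver in both feeds.

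That centring adds 0.67 to each log2 fold change, because the median over all genes was -0.66 in PF and -0.65 in LA. Psmb8 passed on both scales, with 1.88 in PF and 2.25 in LA when centred, and the other two calls did not: Psmc5 became -0.33 and -0.39, and Psmc3ip -0.78 and -0.86. Psmc5 also fell short of the fold limit without PF liver replicate 1 (-0.999) or 4 (-0.993), without PF fat replicate 2 (-0.969) or 4 (-0.96), and without LA fat replicate 1 (-0.992). Centred, the non-ATPase Psmd11 (1.11 and 1.16), the chaperones Psmd9 (1.34 and 1.28) and Psmd5, and the activator Psme4 were called higher in liver in both feeds, and Psmg1 in PF. The share of all genes called on the centred scale is not given here, so these calls have no background beside them.

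On the scale as deposited, the other immunoproteasome genes differed from Psmb8. Psmb10 was lower in liver by less than the fold limit (log2 fold change -0.68, SE 0.19, limma adjusted p = 0.00625 in PF, and -0.81, SE 0.16, adjusted p = 0.000641 in LA), and when centred it was -0.01 and -0.14. Psmb9 did not pass in either feed (-0.14, limma adjusted p = 0.502 in PF, and 0.27, adjusted p = 0.14 in LA). Psme3 was -0.63 and -0.45 as deposited, and 0.04 and 0.22 when centred.

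Among constitutive genes the largest liver deficits after Psmc5 were in Psmd2, the scaffold of the regulatory base, at 43.4 to 44.7 FPKM in PF liver and 77.5 to 90.9 in PF fat (log2 fold change -0.94, limma adjusted p = 7.78e-07, and -0.27 when centred). Psmd9 and Psmd11 lay at the other end. Psmd9 measured 21.2 to 35.7 FPKM in PF liver and 13.2 to 18.6 in PF fat (0.67, limma adjusted p = 0.00223), and Psmd11 22.6 to 23.6 and 15.1 to 18.2 (0.43, adjusted p = 0.000568). Both were higher in liver on either scale. Markers of immune cells differed between tissues as well, in both directions. The 5 leukocyte markers summed to 17.3 to 26.7 FPKM in liver and 265 to 385 in fat, opposite in direction to Psmb8 and the same as Psmb10. Of 11 macrophage markers tested, 8 were called lower and 2 higher in liver in each feed. The 2 were Clec4f (43.6 to 93.4 FPKM in liver, at most 0.459 in fat) and Vsig4 (15.9 to 31.4, at most 0.770), the direction of Psmb8. The part of these cells in the tissue differences was not tested.

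**Figure D5:**
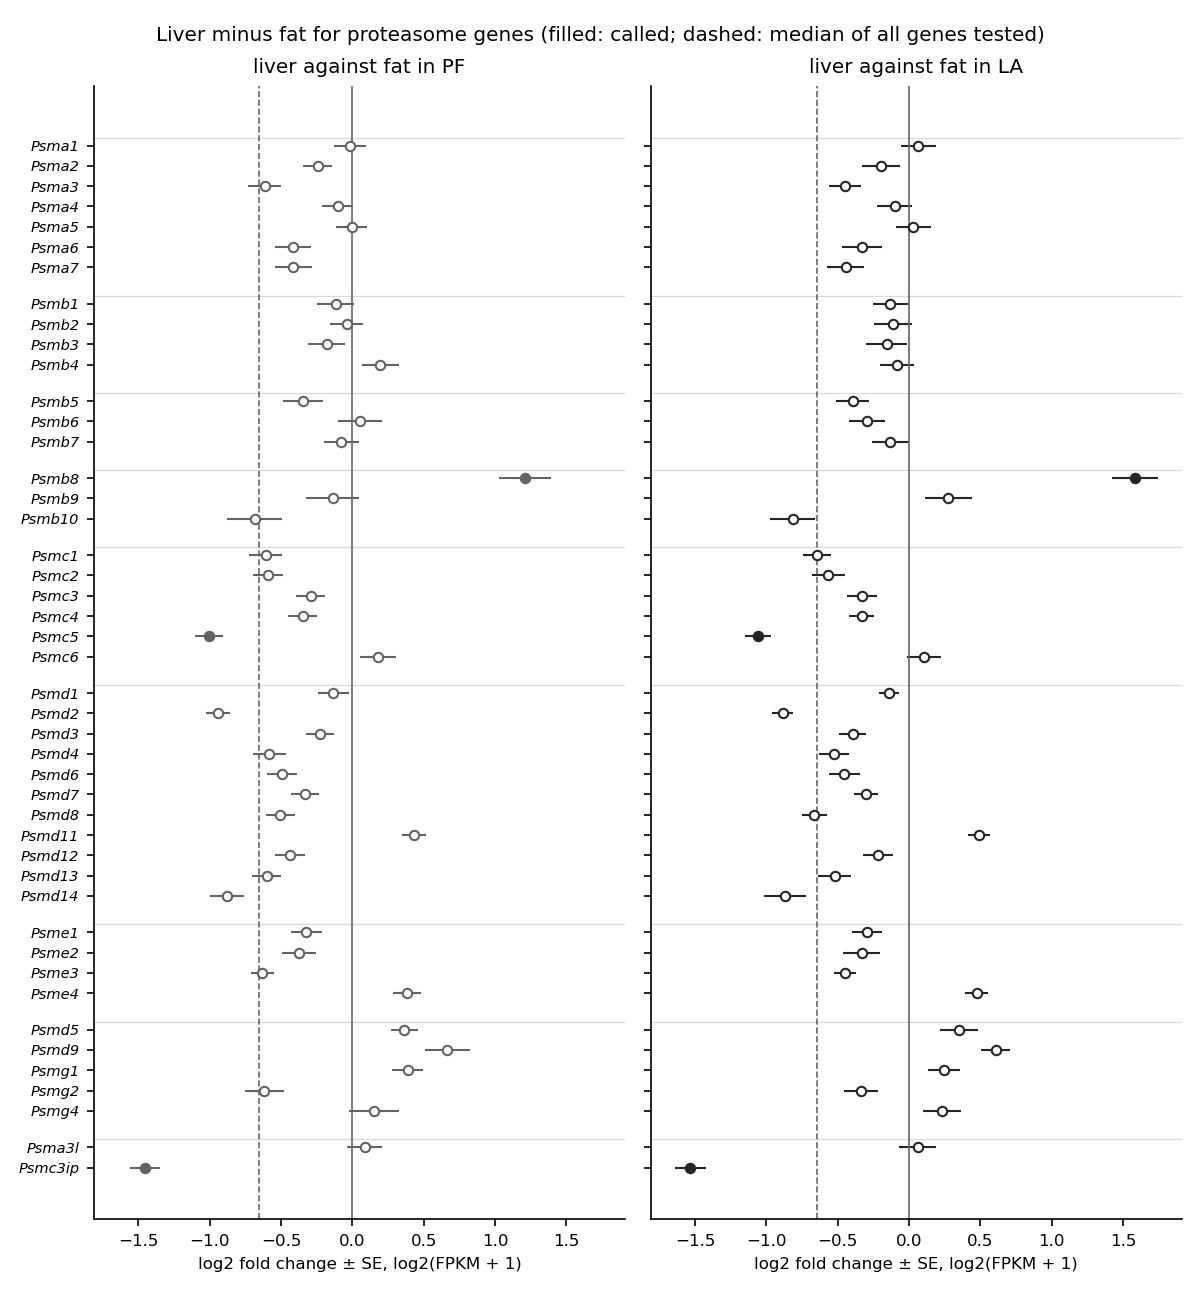
Log2 fold change of liver against fat (points, with SE) on the log2(FPKM + 1) scale for the 45 tested genes in PF (left) and LA (right), in the same blocks of roles as the plot of LA effects; the dashed line is the median of all genes tested, and filled points passed the test. Psmb8 lies far to the right of its block in both feeds, and most members lie between the dashed line and 0.

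Set against the median of the 31 constitutive subunits in the same library, Psmb8 was near that median in liver and well below it in fat. The log2 distance was -0.209, -0.348, -0.76 and 0.0984 in PF liver and 0.793, 0.0215, 0.172 and 0.354 in LA liver, with overlap, and -2.21 to -1.63 in fat under PF and -1.96 to -1.57 under LA. For Psmb9 it was -1.53, -1.37, -1.77 and -0.818 in PF liver and -0.489, -0.629, -0.964 and -0.538 in LA liver, so on this scale PF replicate 4 lay inside the LA range. Psmb10 was below the constitutive median in all 16 libraries (-2.24 to -1.06), and Psme1 was above it in all 16 (1.17 to 1.74).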

How the data were processed

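Per the labels' protocols, total RNA from TRIzol and an RNeasy kit went into TruSeq V2 libraries. These carry no strand information, so a gene and an antisense gene over it cannot be told apart. CASAVA 1.8.2, TopHat and Cuffdiff were used, per the submitters' processing notes, and neither genome build nor annotation is given in the sources used here. Deposited values are FPKM as the authors made them, 1 per symbol and library, per the file headers. No counts are held in them, so count tests were not used. Files were matched to samples by the repository's own listing. No replicate pair held identical values, and log2 values within groups correlated at 0.971 to 0.994 across genes.

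The test was limma's moderated fit with a mean-variance trend (limma 3.58.1, R 4.3.3), run on log2(FPKM + 1). Genes entered if 4 or more libraries of that fit reached 1 FPKM, and p-values were adjusted by Benjamini-Hochberg over all of them. Liver and fat were fitted apart for feed, and 16 libraries entered the difference of effects; libraries were taken as independent across tissues. Log2 ratios within a library, taken on FPKM + 1, were tested with 2-sided exact permutation tests over 70 arrangements. The fit was tested on simulated data. The alternatives tried were each replicate left out, a replicate block, median centring, no filter, a pseudocount of 0.1, all 16 libraries in one model, and thresholds of an adjusted p under 0.1 or a fold change over 2-fold. Figures were drawn with matplotlib 3.10.9.

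The members and gene lists were chosen with earlier results of these data known. Beside the immunoproteasome genes and their counterparts, the rule named members called, those with the 3 smallest p per feed comparison, the 3 highest and lowest levels and the 3 largest tissue differences each way. Of the partner lists it named members called, or else the 3 with the smallest p, and Irf1, Tap1, Tap2, Nlrc5, Nfe2l1 and Pomp in any case; the text gives part of these, and 1 gene of the rule is not reported here. Nlrc5, Paaf1, Sem1, Ecpas, Kdr, Apoa1 and Plin1 were not matched by symbol and are not used here.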

Additional observations from a re-analysis of the deposited data

Results flagged for a closer look

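In groups of 4 libraries, 10 of 183 gene and group combinations held a library set far apart from the other 3. Chance alone gives about 1 in 20, so the count was near that of chance for these 10 combinations. Of these, 4 came from LA fat replicate 1: Psmb10 at 44.2 FPKM (others 28.5 to 29.4), Psmb9 at 42.6 (24.8 to 27.6), Psmb6 at 85.5 (58.3 to 61.3) and the chaperone Psmg4 at 40.1 (25.9 to 27.2). This is the library with the highest summed macrophage and leukocyte markers among the fat libraries. In LA liver, Psmc5 stood apart in replicate 4 at 57.9 FPKM (51.5 to 52.5), Psmd7, a lid subunit, in replicate 3 at 50.4 (48.4 to 48.6), and Psmb11 in replicate 4 at 0.0276 where the others were listed at 0. In PF liver, Psmd8 was lowest in replicate 3 at 63.3 FPKM (75.3 to 77.8) and Psmc3ip highest in replicate 2 at 2.67 (2.28 to 2.31). In PF fat, Psmd5 was highest in replicate 4 at 20.6 FPKM (17.0 to 17.6).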

How the results depend on the processing

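The count of members called in liver, 1 in the report, was 0 without the filter, with all 16 libraries in one model and with a fold change over 2-fold, 2 with the replicate block, 3 at an adjusted p under 0.1, and 0 to 2 with a replicate left out. It stayed at 1 with a pseudocount of 0.1 and with median centring. Psmb9 had a limma adjusted p of 0.087 without the filter and 0.0914 with all 16 libraries in one model, where the larger number of genes or the shared spread is part of the construction; elsewhere the cause was not tested. Psmb8 passed with the replicate block (0.0391), but same-numbered libraries of PF and LA liver correlated at only -0.00347 to 0.152 in their deviations, so the numbers were not taken as pairs, and 1 of 4 correlated best with its own number. For PF and LA fat these correlations were -0.426 to -0.0575 and 0 of 4 did so. Between tissues they were -0.0328 to 0.291 in PF, where 3 of 4 correlated best with their own number, and -0.225 to 0.111 in LA, where 2 of 4 did, and the labels do not say whether equal numbers mark the same rat. Although all rats gave both tissues, the fits take liver and fat libraries as independent; the block by number left the members called between tissues as they were. Members called in fat and in the difference of effects were 0 under every alternative. Between tissues the count of 3 became 6 in PF and 5 in LA with median centring, and 2 to 3 with a replicate left out. The 6 ratios kept their direction with a pseudocount of 0.1, and with a replicate left out Psmb9/Psmb6 in liver ran from 0.78 to 1.09 and Psmb10/Psmb7 in liver from -0.003 to 0.27. Over all genes, the liver count of 435 became 848 at an adjusted p under 0.1, 68 with a fold change over 2-fold, 267 without PF replicate 1 and 208 without LA replicate 2. The 2 genes called in fat became 7 with all 16 libraries in one model, 1 with a pseudocount of 0.1 or the replicate block, and 0 to 2 with a replicate left out. The 46 called for the difference of effects became 22 without the filter, 94 at an adjusted p under 0.1 and 19 to 60 with a replicate left out. With 4 libraries per group and no counts, differences near the replicate spread could not be resolved.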
